A study of Mus musculus with 6 samples.

Results

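Expression of 9 genes for serine synthesis and folate one-carbon metabolism was examined in mouse tumor organoids (MTOs), gel-embedded epithelial cultures derived from tumors of the intestine. The genes were Phgdh, Psat1, Psph, Shmt1, Shmt2, Mthfd1, Mthfd1l, Mthfd2 and Tyms. They were taken by symbol from a matrix of 20756 mouse Ensembl genes, where all 9 were found, and none was dropped for its values. The list itself was chosen with earlier results of these data known. The 3 sgPrkci libraries (replicates 10, 11 and 12) came from MTOs targeted by CRISPR/Cas9 at Prkci, the gene of PKCλ/ι. The 3 sgPrkcz libraries (replicates 13, 14 and 15) came from MTOs targeted in the same way at Prkcz, the gene of PKCζ. Both groups were of the C57BL/6 strain, received no treatment and grew in advanced DMEM/F12 with HEPES, Glutamax, B-27 and recombinant human EGF. The MTOs came from another laboratory, and no source used here says whether the targeted cultures were single clones. Replicates were called biological without a statement of what separated them, so p-values measure only the spread between these libraries. Libraries with a control guide were not analysed here, so every direction is sgPrkci relative to sgPrkcz. Groups followed the labels of the series, and in a single place the study's source data attach the opposite guide names to these libraries, under which every direction would reverse.

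Cells make serine from a glycolytic intermediate in a chain of reactions run by PHGDH, PSAT1 and PSPH. Serine then gives a carbon unit to folate, either in mitochondria through SHMT2, MTHFD2 and MTHFD1L, which release formate, or in the cytosol through SHMT1 and MTHFD1. Folate-bound carbon is used for purines and for thymidylate, which TYMS makes from deoxyuridylate, and proliferating cells, including those of the intestinal epithelium and its tumors, draw on this supply.

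The libraries held 1593480 to 2815760 reads, recovered from the deposited CPM (reads scaled to a fixed total), and 1 read was worth 0.355 to 0.628 CPM. The groups differed widely. Pearson's r across genes was 0.976 to 0.985 within groups and 0.920 to 0.934 between them, and limma called 3911 of 9558 fitted genes (40.9%) at an adjusted p below 0.05, of which 2534 were lower in sgPrkci and 1377 higher. With CPM rescaled by TMM factors, a scaling that lessens the weight of a few very abundant genes, 1889 were lower and 1982 higher. Over all fitted genes the log2 fold change had a median of −0.11 as deposited, and TMM moved it to 0.0016. The targeted genes did not separate the groups: Prkci measured 53.9, 56.5 and 46.9 CPM in sgPrkci, against 72.3, 34.5 and 59.7 CPM in sgPrkcz (a log2 fold change of −0.02 ± 0.18 SE, adjusted p = 0.939), with a sign that turned under TMM, and Prkcz lay below the filter at 2.26, 3.27 and 4.62 CPM in sgPrkci, against 2.97, 5.02 and 2.93 CPM in sgPrkcz. Small deletions from a guide need not lower a tag at the 3′ end, so neither gene checks the labels. The 5 epithelial markers summed to 3481 to 3891 CPM in sgPrkci, against 4271 to 4529 CPM in sgPrkcz, and did not move together. Cdh1 (log2 fold change −0.51, adjusted p = 2.03e-05), Krt18 (−0.41, adjusted p = 6.54e-05) and Krt19 (−0.33, adjusted p = 0.000602) were lower in sgPrkci, whereas Epcam was higher at 790.2, 823 and 699.99 CPM in sgPrkci, against 586, 519.6 and 539 CPM in sgPrkcz (0.49, adjusted p = 1.96e-05). Markers of immune cells, fibroblasts and endothelium each summed to at most 12.4 CPM in sgPrkci, against 7.42 CPM in sgPrkcz, and Col1a2, Col3a1 and Kdr were at 0 in all 6 libraries. Of these markers only Cd68, of macrophages, was fitted, and it was called higher in sgPrkci (10.1 ± 1.87 CPM in sgPrkci, against 5.47 ± 1.3 CPM in sgPrkcz, SD, n = 3 each, 0.78, adjusted p = 0.0214), a call lost without sgPrkci replicate 10 (adjusted p = 0.0841) or 12 (0.0922), without sgPrkcz replicate 15 (0.0833), with no filter (0.0556) and with DESeq2 (0.0683), while Ptprc, the pan-leukocyte marker, was at most 1.51 CPM in sgPrkci, against 0.628 CPM in sgPrkcz. The part of these cell type markers in the enzyme values was not tested.

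All but Mthfd1 of the enzyme genes were lower in sgPrkci MTOs. Of the 9 genes, all of which passed the filter of 5 CPM in at least 3 libraries, 8 were called lower in sgPrkci, against 26.5% of all fitted genes called lower as deposited, 19.8% after TMM and 20.2% with edgeR on the recovered reads. The same 8 were called lower under each of the 16 alternative settings, and Mthfd1 was called under none. Because the list was chosen with earlier results of these data known, these counts describe the 9 genes and are no independent test. No enzyme had a log2 fold change above 0 under any of them, so none was higher at an unadjusted p either. In all 9 genes every sgPrkci library lay below every sgPrkcz library, an arrangement seen in 31.8% of fitted genes. Their median log2 fold change was −0.80 as deposited and −0.69 after TMM, below the median of all fitted genes under both scalings. In these bulk cultures, fewer cells of a type and less RNA per cell cannot be told apart. The plot of CPM by library shows the separation gene by gene.

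**Figure D1:**
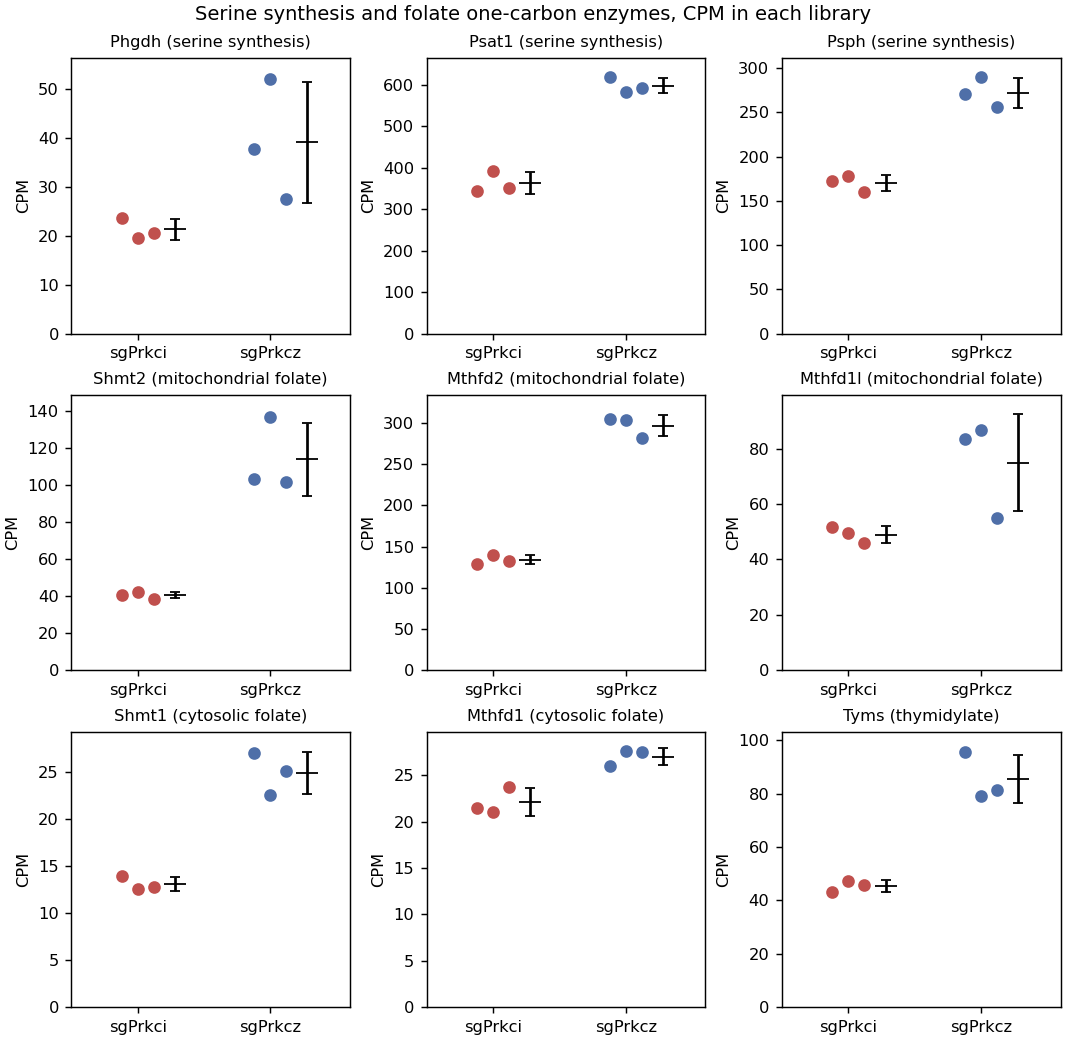
CPM of the 9 enzyme genes in each library (points), sgPrkci on the left (red) and sgPrkcz on the right (blue), with the mean and SD of 3 libraries beside the points and each vertical axis starting at 0. No gene shows overlap between groups, and relative to their means the sgPrkcz libraries scatter most for Phgdh and Mthfd1l.

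All 3 serine synthesis genes were lower in sgPrkci. Phgdh (ENSMUSG00000053398, chr3:98313170-98339990, minus strand, GRCm38 with GENCODE M21 annotation, as for all genes here), which commits 3-phosphoglycerate to serine, measured 23.8, 19.6 and 20.6 CPM in sgPrkci, against 37.8, 52.1 and 27.5 CPM in sgPrkcz. Its groups did not overlap, but the sgPrkcz libraries ranged widely, and the values rested on 42 to 102 reads. The log2 fold change was −0.80 ± 0.19 (SE, adjusted p = 0.0016, limma), with means of 21.3 ± 2.17 CPM in sgPrkci, against 39.1 ± 12.3 CPM in sgPrkcz (SD, n = 3 each). Psat1 (ENSMUSG00000024640, chr19:15904678-15947337, minus strand), the aminotransferase of the pathway, measured 343, 393 and 352 CPM in sgPrkci, against 619, 584 and 594 CPM in sgPrkcz. Replicates lay close together in both groups, and the gap between groups was several times their spread (log2 fold change −0.72 ± 0.07 SE, adjusted p = 6.85e-08). Psph (ENSMUSG00000029446, chr5:129765558-129787449, minus strand), the phosphatase that releases serine, measured 173, 178 and 159.8 CPM in sgPrkci, against 270.4, 289.9 and 256 CPM in sgPrkcz. It too was tightly grouped and lower in sgPrkci (log2 fold change −0.67 ± 0.08 SE, adjusted p = 1.14e-06). The 3 genes summed to 539.7, 590.3 and 532 CPM in sgPrkci, against 928, 926 and 877 CPM in sgPrkcz, a ratio of means of 0.609.

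Folate enzymes come in mitochondrial and cytosolic versions coded by separate genes, and the 2 compartments were compared next. To show how the paired genes begin, the 110 bases before the RefSeq start of each (GRCm38.p6, 5′ to 3′ on the gene's strand) are given for Shmt2 with Shmt1 and for Mthfd2 with Mthfd1. Capitals mark CCAAT or its reverse complement ATTGG, the letters of the CCAAT box bound by NF-Y.
Shmt2 (chr10:127522445-127522554, minus strand): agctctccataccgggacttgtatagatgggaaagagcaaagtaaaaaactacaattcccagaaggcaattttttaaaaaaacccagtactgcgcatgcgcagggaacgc
Shmt1 (chr11:60811266-60811375, minus strand): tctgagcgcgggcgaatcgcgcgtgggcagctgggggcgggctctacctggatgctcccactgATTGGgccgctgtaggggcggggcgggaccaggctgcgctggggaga
Mthfd2 (chr6:83317605-83317714, minus strand): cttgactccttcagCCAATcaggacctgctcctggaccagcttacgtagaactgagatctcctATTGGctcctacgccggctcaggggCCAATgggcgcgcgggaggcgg
Mthfd1 (chr12:76255122-76255231, plus strand): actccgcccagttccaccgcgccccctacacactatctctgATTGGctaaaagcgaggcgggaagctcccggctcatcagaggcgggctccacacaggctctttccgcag
Mthfd2 held 3 matches in these windows, Shmt1 and Mthfd1 held 1 each, and Shmt2 held 0. The Shmt2 window was also the least rich in G and C, at 43.6%, against 72.7% for Shmt1, 61.8% for Mthfd2 and 62.7% for Mthfd1.

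The mitochondrial genes were called lower in sgPrkci in each of 3 cases. Shmt2 (ENSMUSG00000025403, chr10:127517123-127522444, minus strand), the mitochondrial serine hydroxymethyltransferase, measured 40.7, 42 and 38.7 CPM in sgPrkci, against 103, 137 and 102 CPM in sgPrkcz. The lowest sgPrkcz library stood well above the highest sgPrkci library. The log2 fold change of −1.46 ± 0.12 (SE, adjusted p = 4.05e-09) was the lowest of the 9 enzymes, and 1.28% of fitted genes had a lower one. Mthfd2 (ENSMUSG00000005667, chr6:83305691-83325908, minus strand), the mitochondrial methylenetetrahydrofolate dehydrogenase and cyclohydrolase, measured 129, 140.1 and 132 CPM in sgPrkci, against 304, 303 and 281 CPM in sgPrkcz. Both groups were narrow, and the sgPrkci mean of 134 ± 5.58 CPM stood at 0.452 times the sgPrkcz mean of 296 ± 12.8 CPM (SD, n = 3 each). Its log2 fold change was −1.14 ± 0.08 (SE, adjusted p = 2.95e-10), with 2.93% of fitted genes lower. Mthfd1l (ENSMUSG00000040675, chr10:3973118-4167081, plus strand), the mitochondrial formyltetrahydrofolate synthetase that releases formate, measured 51.7, 49.5 and 45.8 CPM in sgPrkci, against 83.4, 86.6 and 55 CPM in sgPrkcz. Replicate 15 of sgPrkcz sat near the sgPrkci libraries, so the groups were separated only narrowly. The log2 fold change was −0.58 ± 0.14 (SE, adjusted p = 0.0026), and the adjusted p reached 0.0438 at most over the alternatives.

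The cytosolic genes split. Shmt1 (ENSMUSG00000020534, chr11:60788104-60811718, minus strand), the cytosolic serine hydroxymethyltransferase, measured 14, 12.6 and 12.8 CPM in sgPrkci, against 27.1, 22.6 and 25.2 CPM in sgPrkcz, from 27 to 73 reads a library. The groups did not overlap, and the log2 fold change was −0.88 ± 0.18 (SE, adjusted p = 0.000574). Smcr8, on the opposite strand, covers the 3′ end of Shmt1 and measured 15.1, 12.1 and 15.3 CPM in sgPrkci, against 19.3, 23.2 and 24 CPM in sgPrkcz. It was also lower in sgPrkci (log2 fold change −0.61, adjusted p = 0.0133), and since no source used here gives the strand setting of the count, reads of these 2 genes may not be told apart. Ndufa4l2 overlaps the 3′ end of Shmt2 in the same way and had no row in the matrix, so no value of it can be set beside Shmt2. Mthfd1 (ENSMUSG00000021048, chr12:76255298-76319803, plus strand), which carries the dehydrogenase, cyclohydrolase and synthetase activities in the cytosol, measured 21.5, 21 and 23.8 CPM in sgPrkci, against 26, 27.6 and 27.5 CPM in sgPrkcz. Although the groups did not overlap, the difference did not pass the test (log2 fold change −0.28 ± 0.16 SE, 95% confidence interval −0.62 to 0.06, adjusted p = 0.176). Over the 16 alternatives it lay between −0.33 and −0.15, with adjusted p from 0.0741 to 0.668, and with TMM it was −0.17. A reduction as deep as that of Mthfd2 lies outside this interval.

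**Figure D2:**
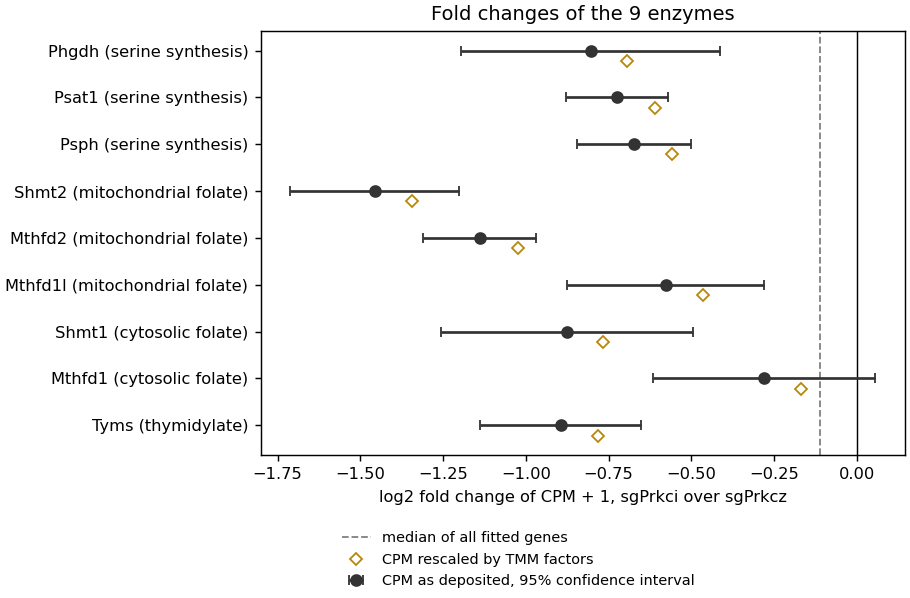
Log2 fold change of CPM + 1 (horizontal axis, sgPrkci over sgPrkcz) for the 9 enzymes, with circles and 95% confidence intervals for CPM as deposited and open diamonds after TMM; the dashed line marks the median over all fitted genes at −0.11. Shmt2 at −1.46 and Mthfd2 at −1.14 lie farthest to the left, and only the interval of Mthfd1 reaches 0.

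Isozymes were then compared within each library as the log2 ratio of mitochondrial over cytosolic CPM + 1, which removes any scaling factor of a library apart from the pseudocount. Because tags come from 3′ ends of different transcripts, only the change of a ratio between groups is read, not its level. The log2 ratio of Mthfd2 over Mthfd1 was 2.53, 2.68 and 2.42 in sgPrkci and 3.50, 3.41 and 3.31 in sgPrkcz. All 3 sgPrkci ratios were lower, with little spread (difference −0.86 ± 0.09 SE, 2-sided exact permutation p = 0.1, adjusted p = 0.15 over 3 ratios). For Shmt2 over Shmt1 the log2 ratio was 1.48, 1.66 and 1.53 in sgPrkci and 1.89, 2.55 and 1.97 in sgPrkcz. Again the groups did not overlap (difference −0.58 ± 0.21 SE, exact permutation p = 0.1, adjusted p = 0.15), though replicate 14 of sgPrkcz stood above the other two, and without it the difference was −0.38. Any reads of Smcr8 counted in Shmt1 would enter the ratio of Shmt2 over Shmt1 and the cytosolic sum below. Mthfd1l over Mthfd1 gave 1.23, 1.20 and 0.92 in sgPrkci and 1.65, 1.61 and 0.97 in sgPrkcz. Here the groups overlapped (difference −0.30 ± 0.24 SE, exact permutation p = 0.3, adjusted p = 0.3), and leaving out single sgPrkcz libraries moved the difference to −0.18 without replicate 13, −0.20 without 14 and −0.52 without 15. With 3 against 3 libraries the smallest p this test allows is 0.1, so no ratio could pass 0.05. Summed over genes, the mitochondrial enzymes gave 222, 232 and 217 CPM in sgPrkci, against 491, 527 and 438 CPM in sgPrkcz, a ratio of means of 0.460. The cytosolic enzymes gave 35.5, 33.6 and 36.6 CPM in sgPrkci, against 53, 50.2 and 52.7 CPM in sgPrkcz, a ratio of means of 0.678. These sums add tags of different transcripts, so the most abundant gene weighs most. Mthfd2 averaged 134 of 223 CPM of the mitochondrial sum in sgPrkci and 296 of 485 CPM in sgPrkcz. Gene by gene the compartments overlapped, with log2 fold changes of −0.88 for cytosolic Shmt1 and −0.58 for mitochondrial Mthfd1l.

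**Figure D3:**
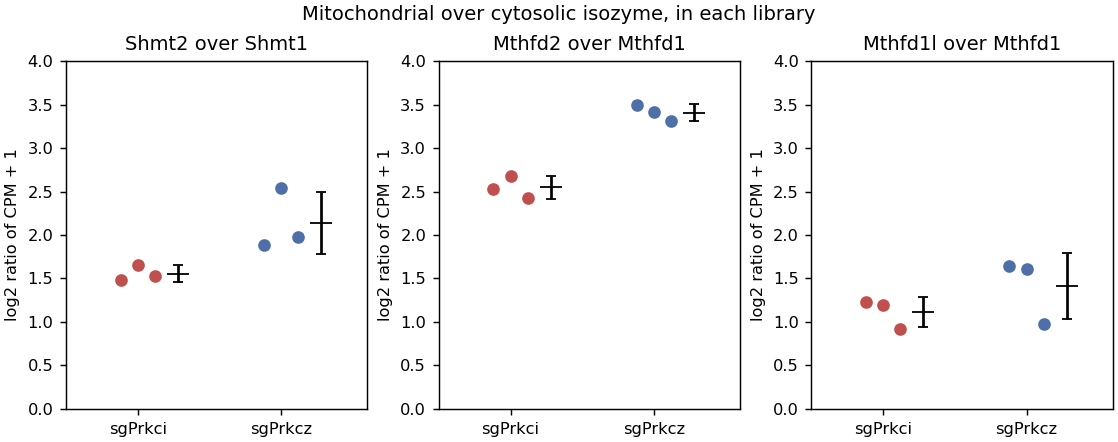
Log2 ratio of the mitochondrial over the cytosolic isozyme (CPM + 1) in each library (points), sgPrkci left (red) and sgPrkcz right (blue), with mean and SD of 3 libraries beside the points. The groups are apart for Shmt2 over Shmt1 and for Mthfd2 over Mthfd1 and overlap for Mthfd1l over Mthfd1.

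Tyms (ENSMUSG00000025747, chr5:30058202-30073617, minus strand), thymidylate synthase, measured 43, 47.2 and 45.8 CPM in sgPrkci, against 95.7, 79.1 and 81.3 CPM in sgPrkcz. No library of one group came near the other, and the log2 fold change was −0.89 ± 0.12 (SE, adjusted p = 2.49e-06). A list of 6 other genes for thymidylate and deoxynucleotide supply was fitted in full. Against 26.5% of all fitted genes called lower, 2 of these, Rrm2 and Dtymk, were not called and 4 were lower in sgPrkci. They included thymidine kinase Tk1 (48 ± 3.81 CPM in sgPrkci, against 102 ± 7.15 CPM in sgPrkcz, SD, n = 3 each, log2 fold change −1.07, adjusted p = 1.14e-07) and the ribonucleotide reductase subunit Rrm1 (64.8 ± 2.33 CPM in sgPrkci, against 119.9 ± 17.2 CPM in sgPrkcz, a log2 fold change of −0.87, adjusted p = 1.8e-06). Dut, which clears dUTP, had a log2 fold change of −0.49 (adjusted p = 0.000224). Dctd, the deoxycytidylate deaminase, had −1.70 (adjusted p = 6e-05) and passed the filter only through its sgPrkcz libraries.

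Markers of proliferation moved in the same direction. Of 15 listed, 14 were fitted and all 14 were lower in sgPrkci (13 after TMM, where Pcna lost its call), and the list summed to 1868 to 1931 CPM in sgPrkci, against 3122 to 3305 CPM in sgPrkcz. Over all fitted genes 26.5% were called lower. The DNA topoisomerase Top2a had a log2 fold change of −0.96 (adjusted p = 1.9e-10), the mitotic kinase Plk1 −0.83 (adjusted p = 3.06e-07), the replicative helicase subunit Mcm5 −0.98 (adjusted p = 1.16e-06) and cyclin Ccna2 −0.65 (adjusted p = 4.74e-06). The median of the 14 was −0.65, against −0.80 for the 9 enzymes. Whether proliferation had a part in the enzyme values was not tested.

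Several of the 9 genes, Phgdh, Psat1, Shmt2 and Mthfd2 among them, are known targets of ATF4, a transcription factor of the amino acid and mitochondrial stress responses. Atf4 measured 469, 559 and 491 CPM in sgPrkci, against 1261, 1352 and 1517 CPM in sgPrkcz. The gap far exceeded the replicate spread (log2 fold change −1.44 ± 0.08 SE, adjusted p = 3.02e-12). Of a list of 10 genes, Atf4 and its stress targets, 7 were lower in sgPrkci, 0 higher and 3 not called (6 lower and 1 higher after TMM), and at an unadjusted p below 0.05 there was 1 higher. The shares called over all fitted genes were 26.5% lower and 14.4% higher. Slc3a2, counted as lower, lost its call in 9 of 16 alternatives, and Slc7a5, also counted as lower, in 2. Slc7a11 (log2 fold change 0.06, adjusted p = 0.634) and Sesn2 (−0.21, adjusted p = 0.47) were not called. Lower genes included Trib3, a pseudokinase that dampens ATF4 (log2 fold change −1.41, adjusted p = 4.08e-09), the factor Atf5 (−1.22, adjusted p = 2.72e-08) and Chac1, which degrades glutathione (−1.66, adjusted p = 6.26e-07). Ddit3, which codes for the stress factor CHOP and was singled out after its values were seen, ran the other way at 79.6, 103 and 83.5 CPM in sgPrkci, against 79, 69 and 75.5 CPM in sgPrkcz. It was not called as deposited (log2 fold change 0.24, adjusted p = 0.0955) and was called higher after TMM (0.36, adjusted p = 0.014). The part of ATF4 in the enzyme values was not tested.

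Motifs were searched on both strands of the 250 bases before each RefSeq start, with all 9 genes matched, by 10 windows. A gene was counted if any of its windows held a match, whereas the shares over fitted genes and over all promoters count windows. CCAAT occurred in 6 of 9 genes (Phgdh, Psat1, Psph, Shmt1, Mthfd1 and Mthfd2), against 35.2% of promoter windows of fitted genes and 33.8% of all 32851 windows. TGATGNAA, the core of the response element bound by ATF4 with a partner, occurred in 0 of 9 genes, against 1.97% of windows of fitted genes, and in 3 of 9 matched genes of the ATF4 list (Asns, Chac1 and Slc7a11). At so low a share, 0 of 9 says little, and bases after the start and in introns were not searched. The RefSeq starts of Mthfd2 (chr6:83317604) and Psat1 (chr19:15925059) lay within the gene spans given above, so other starts of these genes were not covered. Those of Shmt1 (chr11:60811265), Psph (chr5:129787253) and Phgdh (chr3:98339969) also lay within the spans, but nearer to the upstream edge. The E-box CACGTG occurred in Tyms alone (8.77% of windows of fitted genes), and TTTGGCGC, a form of the E2F site, in none (0.835%). None of these motifs contains another, and no enzyme promoter held matches to more than a single motif.

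Other genes of one-carbon metabolism were taken from 6 lists of 41 genes in all, of which 31 were fitted. Of these 19 were lower in sgPrkci, 3 higher and 9 not called (18 lower and 4 higher after TMM), with a median log2 fold change of −0.58. Over all fitted genes 26.5% were called lower and 14.4% higher. Dctd, counted as lower, and Amt, counted as higher, passed the filter only through the group where each was high. Slc1a5, counted as lower, lost its call in 9 of 16 alternatives. Among 7 fitted folate cycle enzymes 4 were lower and 1 higher. Aldh1l2, the mitochondrial formyltetrahydrofolate dehydrogenase, measured 7.54, 9.34 and 9.23 CPM in sgPrkci, against 34.1, 36.4 and 34.5 CPM in sgPrkcz. Its log2 fold change of −1.90 ± 0.19 (SE, adjusted p = 3.9e-08) lay below those of all 9 enzymes, a difference that was not tested. The purine enzymes Gart and Atic, which consume formylated folate, had log2 fold changes of −1.09 (adjusted p = 6.02e-06) and −0.65 (adjusted p = 8.69e-05).

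All 6 genes of serine and glycine transport were called lower in sgPrkci, against 26.5% of all fitted genes. Slc1a5, whose groups overlapped, lost its call after TMM and in 9 of 16 alternatives in all. Slc38a1, a neutral amino acid carrier of the plasma membrane, averaged 33.6 ± 0.929 CPM in sgPrkci, against 86.6 ± 5.23 CPM in sgPrkcz (a log2 fold change of −1.34, adjusted p = 8.79e-09). Sfxn1, which brings serine into mitochondria, averaged 179 ± 7.99 CPM in sgPrkci, against 269.6 ± 24.7 CPM in sgPrkcz (−0.58, adjusted p = 1.1e-05), beside −1.46 for Shmt2, the serine-cleaving enzyme of that compartment. Slc38a2 (−0.55, adjusted p = 1.31e-05) and Slc1a4 (−0.80, adjusted p = 0.000311), which also carry neutral amino acids, were lower too.

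For the small lists that follow, the shares over all fitted genes were 26.5% called lower in sgPrkci and 14.4% called higher. Folate handling was mixed. Of 3 fitted genes, the reduced folate carrier Slc19a1 was lower in sgPrkci (7.02 ± 0.88 CPM in sgPrkci, against 15.7 ± 1.11 CPM in sgPrkcz, a log2 fold change of −1.06, adjusted p = 0.000588), whereas Ggh, which trims glutamate from stored folates, was higher (33.6 ± 0.818 CPM in sgPrkci, against 21.2 ± 4.79 CPM in sgPrkcz, 0.67, adjusted p = 0.00408). Fpgs, which adds the glutamates, was not called (−0.11, adjusted p = 0.771). In the glycine cleavage system Gcsh was lower (−0.71, adjusted p = 0.00197), Dld was not called (−0.07, adjusted p = 0.554, and 0.04 after TMM), and Amt was called higher (6.65 ± 0.529 CPM in sgPrkci, against 3.14 ± 1.79 CPM in sgPrkcz, 0.97, adjusted p = 0.0186). Amt passed the filter only through its sgPrkci libraries, as 1 of 3 sgPrkcz libraries reached 5 CPM, and its call was lost without sgPrkci replicate 10 (adjusted p = 0.0596) or 12 (0.0647), without sgPrkcz replicate 14 (0.0844) or 15 (0.0561), and with DESeq2 (0.111). Of 6 fitted genes of the methionine cycle and transsulfuration 3 were lower and 3 not called. Cth, which makes cysteine from cystathionine, averaged 13.8 ± 1.5 CPM in sgPrkci, against 48.1 ± 5.65 CPM in sgPrkcz (a log2 fold change of −1.73, adjusted p = 2.71e-08). Methionine synthase Mtr and its reductase Mtrr followed at −1.03 (adjusted p = 0.00197) and −0.95 (adjusted p = 0.00138). Mat2a, which makes S-adenosylmethionine, was not called as deposited (0.26, adjusted p = 0.0755) and was called higher after TMM (0.38, adjusted p = 0.00906).

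**Figure D4:**
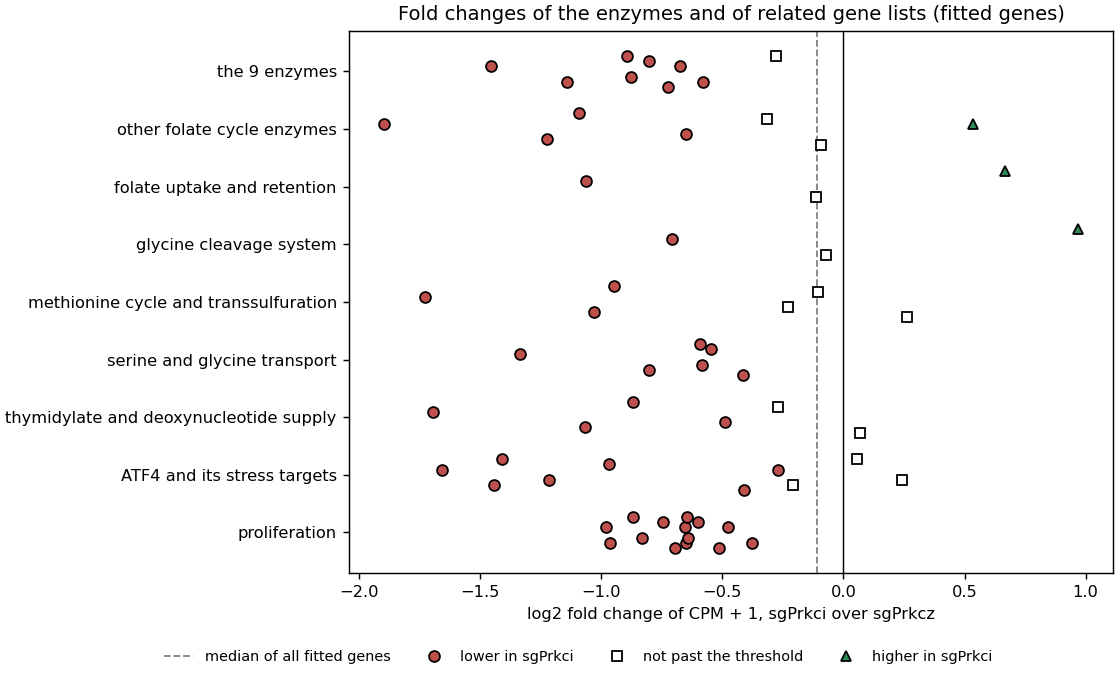
Log2 fold change of CPM + 1 (horizontal axis, sgPrkci over sgPrkcz) of each fitted gene in the 9 enzymes and 8 related lists, with red circles for genes called lower in sgPrkci, green triangles for genes called higher and open squares for genes not past the threshold; vertical offsets within a list only separate points, and the dashed line is the median of all fitted genes. Green triangles occur in 3 lists (folate cycle, folate uptake and retention, glycine cleavage), and each of the 14 proliferation points is red.

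The mean profile of the 9 enzymes over the 6 libraries was set beside the profiles of 4773 other fitted genes. These had a mean of at least 32.2 CPM, and the measure was the root mean square distance of centred log2(CPM + 1) values. Single enzymes differ from their mean profile, with log2 fold changes from −1.46 (Shmt2) to −0.28 (Mthfd1). Nearest to the mean profile were Tlnrd1 (distance 0.0331), Nfe2l2 (0.0413), Nars (0.0420), Hnrnpab (0.0518) and Topbp1 (0.0532), against a median distance of 0.397. Tlnrd1 measured 54.7, 57.4 and 54.7 CPM in sgPrkci, against 103, 105 and 94.8 CPM in sgPrkcz.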

How the data were processed

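RNA of 6 MTO libraries was prepared with the QuantSeq 3′ FWD kit, which reads the end of polyadenylated transcripts, and sequenced single-end. CPM values were made and deposited by the authors per Ensembl gene, and each column added up to 1000000. The build per the labels was GRCm38. The kit was used with optional molecular identifiers, and the software named by the study includes a Lexogen QuantSeq DE pipeline (BlueBee) that is not tied to these libraries. No source used here gives the aligner, the counter, the annotation or whether reads were collapsed on identifiers. Symbols were found for 20675 of 20756 genes. In each library 100% of values were whole multiples of the smallest within 0.01, so whole reads were recovered, and counting intervals would cover counting error only.

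The 9558 genes that reached 5 CPM in 3 or more libraries were fitted with limma 3.58.1 (R 4.3.3, intensity trend) on log2(CPM + 1), a scale that understates the change of low genes. P-values were adjusted by Benjamini-Hochberg over all fitted genes. Alternatives were TMM and quantile scaling, omission of rRNA-like genes, no filter, no trend, a 10 CPM filter, a pseudocount of 0.1 or 10, omission of each library, and edgeR 4.0.16 and DESeq2 1.42.0 on recovered reads. edgeR called 3941 genes. The fits were tested on simulated data in which few genes changed, in random directions, with the same scatter set for all genes. That setting lacks the broad, uneven difference seen between these groups, so it does not check the calls under such a difference.

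Named genes were the 9 enzymes, Prkci, Prkcz, in each other list the fitted genes (at most 4) of smallest adjusted p, and the 5 nearest profiles. Smcr8 and Ndufa4l2 were named for their overlap. Ddit3, Pcna, Slc1a5, Slc3a2, Slc7a5, Slc7a11, Sesn2, Rrm2, Dtymk, Mthfd2l and Gldc were named after their values were seen. A result that this rule takes is not reported here. The enzymes and lists were chosen with earlier results of these data known. Sequences are from RefSeq (GRCm38.p6).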

Additional observations from a re-analysis of the deposited data

How the results depend on the processing

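The 8 lower calls and 0 higher calls among the 9 enzymes held under the 16 alternatives. Counts over all fitted genes depended more on scaling and tool. With DESeq2 1350 genes were lower and 1450 higher, and 64.8% of calls were lower as deposited, against 48.8% with TMM. Leaving out single libraries gave 3089 to 3489 calls, with 2062 to 2303 lower and 968 to 1380 higher. The difference of the log2 ratio, sgPrkci minus sgPrkcz, then lay between −0.93 and −0.80 for Mthfd2 over Mthfd1, between −0.70 and −0.38 for Shmt2 over Shmt1, and between −0.52 and −0.18 for Mthfd1l over Mthfd1. Among 72 genes followed over these settings, 42 values lost a call, 13 gained a call and none turned sign while called. The call of Smcr8 was lost with quantile scaling (adjusted p = 0.0527), without sgPrkci replicate 11 (0.0598), with edgeR (0.0542) and with DESeq2 (0.168). No paired analysis was possible because the groups share no replicate numbers. Depth limits Phgdh, Shmt1 and Mthfd1 most, with 27 to 102 reads a library.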

Other observations

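The mitochondrial dehydrogenases Mthfd2 and Mthfd2l moved in opposite directions, a pair singled out after its values were seen. Mthfd2l, a close relative of Mthfd2 that carries out the same step, measured 27.9, 24.8 and 29.1 CPM in sgPrkci, against 20.4, 17.6 and 17.6 CPM in sgPrkcz. It was called higher in sgPrkci (log2 fold change 0.53 ± 0.17 SE, adjusted p = 0.0152, limma), a call lost without sgPrkci replicate 10 (adjusted p = 0.0564) or 12 (0.0666). The log2 ratio of Mthfd2 over Mthfd2l was 2.17, 2.45 and 2.14 in sgPrkci and 3.83, 4.03 and 3.93 in sgPrkcz, a difference of −1.67 ± 0.11 (SE). Because the pair was chosen for this difference, no p-value is given for it.

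Gldc, the glycine decarboxylase of the glycine cleavage system, fell below the filter and was not fitted. It measured 6.03, 6.07 and 3.91 CPM in sgPrkci, against 1.11, 0 and 0.585 CPM in sgPrkcz, and at most 16 reads in any library.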
